A study of Drosophila melanogaster with 3 samples.

Results

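Among the places where the tagged zinc finger protein CG6808 was found in fly prepupae, 1755 peaks lay at promoters that serve protein-coding genes in a single direction. The authors kept 8091 peaks that replicates shared (the IDR list, for irreproducible discovery rate), and these peaks were 21.7% of them. Members were selected on the peak signal and on the summit position. The 300 peaks of highest signal were left out, the summit (the highest point of a peak) had to lie within 500 bp of a protein-coding transcription start site, and the nearest such start could have no start of another protein-coding gene on the opposite strand, pointing away from it, within 1000 bp. The signal is the authors' peak height over control. The same steps gave 671 peaks at divergent promoters, where 2 protein-coding genes start head to head, and 5365 peaks further than 500 bp from any protein-coding start. The 300 left-out peaks held 120 at single-direction promoters.

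The assay was chromatin immunoprecipitation with sequencing (ChIP-seq) on whole prepupae, in 3 biological replicates of 1 group. All 3 came from a transgenic Drosophila melanogaster line that carries CG6808 with GFP fused to its C-terminal end, males and females pooled, and the precipitation used an antibody to GFP. The age label reads 24 days, although prepupae are younger than that, and the antibody label reads CG6808. No promoter, cell type or expression level of the transgene is given in the sources used here. Whole animals mix all cell types, so a weak site in many cells and a strong site in few cannot be told apart. Peak positions hold no expression values, so the tissue was not checked against marker genes. Read depth is unknown, and untagged flies and the control library were not analysed here.

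As background, a promoter is the stretch around a start site where RNA polymerase II is loaded, and fly genes often sit head to head with a shared stretch between them. At a single-direction promoter, as defined here, no other protein-coding gene starts head to head within 1000 bp. CG6808, named Zaf1 in the fly annotation, is a protein with zinc fingers, a fold that commonly binds DNA. Other factors are known at fly promoters: GAGA factor, encoded by Trl, binds GAGAG repeats and keeps chromatin open, while DREF binds the DNA replication-related element (DRE), TATCGATA, at many housekeeping promoters.

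The windows shown here carry the sequence features of these peaks. The first 4 hold the 5-base core CACTG followed downstream by its reverse complement CAGTG (an inward-facing pair), from the highest such peaks on arms X, 2L, 3L and 3R, apart from Sqor. The next pair holds GAGAG or its reverse complement CTCTC at 3 or more places and no core within 100 bp of the summit, and the last, with the highest signal among those with neither, serves as contrast. Capitals mark the core in the first 4 windows and GAGAG or CTCTC in the next pair, and each run reads 5′ to 3′ on the strand of the gene. All are from the Release 6 genome (dm6), with starts from Ensembl release 115. Tbh, which encodes the enzyme that makes octopamine, is at chrX:7995303-7995452 on the plus strand. CG31808 is at chr2L:16716304-16716453 on the minus strand. CG6163 is at chr3L:11364425-11364574 and woc, a zinc finger gene, at chr3R:27263564-27263713, both on the minus strand. Syp, an RNA-binding protein gene, is at chr3R:20778623-20778772, CG1907 at chr3R:29618831-29618980 and CG8036 at chr3R:8669302-8669451, all on the plus strand.
Tbh: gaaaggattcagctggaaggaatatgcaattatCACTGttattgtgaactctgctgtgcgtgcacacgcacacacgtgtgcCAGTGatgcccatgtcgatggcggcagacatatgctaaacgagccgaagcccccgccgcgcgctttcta
CG31808: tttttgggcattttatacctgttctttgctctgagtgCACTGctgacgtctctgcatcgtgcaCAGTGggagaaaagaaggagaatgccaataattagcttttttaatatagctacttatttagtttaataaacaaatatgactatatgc
CG6163: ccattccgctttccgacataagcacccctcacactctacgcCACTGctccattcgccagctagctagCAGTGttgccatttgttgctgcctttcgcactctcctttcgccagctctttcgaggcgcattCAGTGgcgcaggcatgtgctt
woc: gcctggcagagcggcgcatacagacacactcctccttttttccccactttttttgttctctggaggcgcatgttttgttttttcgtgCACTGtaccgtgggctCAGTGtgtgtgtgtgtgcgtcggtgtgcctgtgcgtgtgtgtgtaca
Syp: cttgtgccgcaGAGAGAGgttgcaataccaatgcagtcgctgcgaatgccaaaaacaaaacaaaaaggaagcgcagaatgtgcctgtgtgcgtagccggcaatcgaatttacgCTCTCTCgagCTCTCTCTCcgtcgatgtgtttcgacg
CG1907: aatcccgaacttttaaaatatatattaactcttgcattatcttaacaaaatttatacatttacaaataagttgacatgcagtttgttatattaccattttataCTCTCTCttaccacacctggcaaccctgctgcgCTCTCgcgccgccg
CG8036: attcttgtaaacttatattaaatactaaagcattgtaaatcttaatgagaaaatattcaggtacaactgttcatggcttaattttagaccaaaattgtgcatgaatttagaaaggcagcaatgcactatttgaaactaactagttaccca

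Between the first bases of the inward-facing pair there were 48 bp at Tbh, 26 bp at CG31808, 26 bp at CG6163 and 16 bp at woc, so no single spacing was shared by all 4. Sqor had a higher signal, 1303, with a pair 69 bp apart. Its window lies in exons and is not printed. Tsp42El, on another arm, had a pair and a signal of 808 and is also not printed. At Tbh, whose summit lay 279 bp upstream of the start between genes, replicates 1, 2 and 3 had signals of 578, 264 and 325. At woc, whose summit lay in an intron 384 bp downstream of the start, it was 406, 187 and 167. Signals are not scaled between lists, so ranks are the fairer comparison: Tbh ranked 637, 617 and 395 in the 3 replicates and woc 1171, 1137 and 1303.

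Most of these peaks lay just before the gene. Of the 1755 summits, 1205 were upstream of the nearest start, or 68.7% (95% Wilson interval 66.5 to 70.8%). The median offset was -118 bp, with quartiles at -253 and 43 bp. The fullest 100 bp bin was that from 200 to 100 bp upstream, with 323 peaks. In the replicates' own lists, cut to the 8091 strongest regions and treated alike, the upstream share was 69.9% ± 1.51 (SD, n = 3) and the median offset was -122 bp ± 17.1. Because the window of 500 bp is part of the selection, these shares describe the set and were not tested.

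Upstream summits were not all in empty sequence between genes. Of the 1205, 565 were intergenic (46.9%) and 525 were in introns (43.6%). In 517 cases (42.9%) the summit lay inside the body of the same gene, upstream of an internal start, and in 134 (11.1%) inside another protein-coding gene. Of the 550 downstream summits, 371 (67.5%) lay in the 5′ untranslated region, 138 (25.1%) in an intron and 36 in a coding exon. Only protein-coding starts enter the definition of a single direction. A start of a noncoding gene lay head to head within 1000 bp at 105 peaks (5.98%), against 4.40% of all 13422 single-direction starts.

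Signal, position and base composition moved together. The members were ordered by signal and divided into 4 equal parts, called quartiles here. Upstream summits made up 80.4% of the strongest quartile (76.4 to 83.9%), 73.6% and 63.6% of the next, and 57.1% of the weakest (52.4 to 61.6%). The median offset went from -191 bp in the strongest quartile to -31.5 bp in the weakest. In the replicate lists the upstream share was 79.3% ± 0.588 in the strongest quartile and 61.0% ± 1.56 in the weakest. The difference was 18.3 points ± 1.00 (SD, n = 3), between 17.3 and 19.3 in every replicate. Divergent promoter peaks showed a like change in these lists, with 68.1% ± 4.21 in the strongest quartile and 51.2% ± 3.67 in the weakest. Signal and summit position were both used in the selection, so these values are a description.

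**Figure D1:**
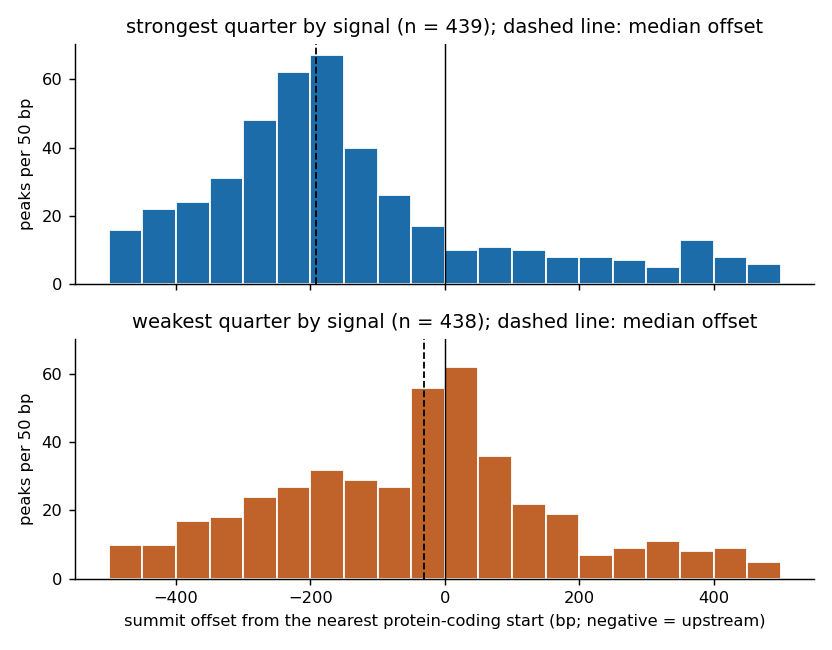
Offset of the summit from the nearest protein-coding start, in bp, for the strongest (upper panel) and weakest (lower panel) quartile of peaks by signal, as peaks per 50 bp. The strongest peaks gather around 200 bp upstream, with a median offset of -191 bp, and the weakest at the start itself, with a median of -31.5 bp.

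The strongest peaks also stood on AT-rich sequence. Median GC content in 201 bp around the summit was 34.8%, 40.3%, 43.8% and 44.3% from the strongest to the weakest quartile. The replicate lists gave 35.2% ± 0.287 and 43.8% ± 0.498 for the strongest and weakest (SD, n = 3). GC content differed at equal offsets too. Between 300 and 100 bp upstream it was 33.3% in the strongest quartile (217 peaks) and 42.3% in the weakest (113 peaks), against 37.8% for all single-direction promoters at the centre of that bin. Within 100 bp of the start it was 41.0% and 46.8%, against 43.3% for all promoters. The part of base composition in peak height was not tested.

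Replicate support fell with signal. In the strongest quartile 92.5% of peaks had a summit within 100 bp among the 8091 strongest regions of all 3 replicates, followed by 80.4%, 43.1% and 7.08%. Over the whole set 979 peaks (55.8%) were matched in all 3, 463 in 2, 278 in 1 and 35 in none. Replicate 1 held 87.9% of the members in that top, replicate 2 73.7% and replicate 3 74.4%. The IDR list was made from these replicates, so this is a description of the peaks. In the weakest quartile 31 of 438 peaks were matched in all 3, so individual genes there are less certain.

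**Figure D2:**
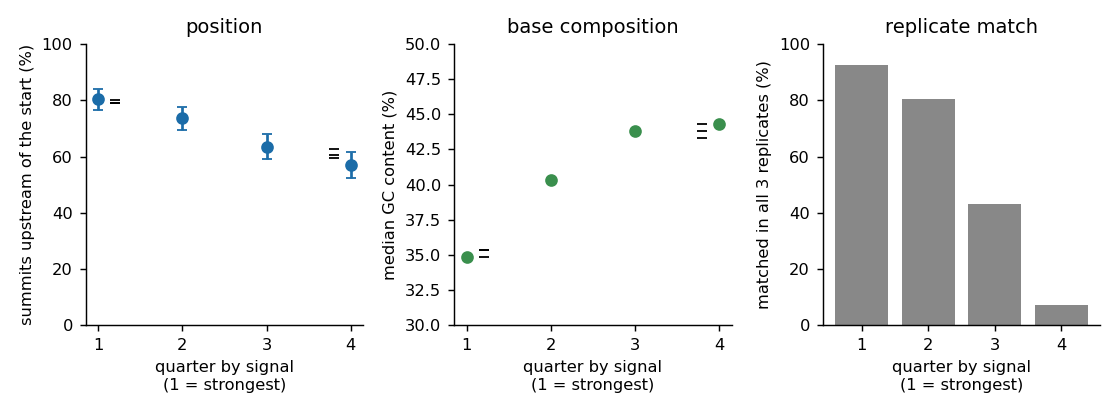
Share of summits upstream of the start in percent (circles, bars are 95% Wilson intervals), median GC content in 201 bp in percent, and share of peaks matched in all 3 replicates in percent, by quartile of signal from 1 (strongest) to 4 (weakest). Short black ticks are the 3 replicates' own lists, equal values overlapping. The upstream share goes from 80.4 to 57.1% and GC content from 34.8 to 44.3%.

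A member with a high signal could still miss its replicate match by a few bases. In all, 7 peaks had no summit within 100 bp in any replicate's full list of 30000 regions. The strongest was at numb, which encodes an inhibitor of Notch, with a signal of 1317. Its nearest replicate summits lay 105, 110 and 104 bp away and ranked 522, 284 and 424, so the region was high in every replicate. The other 6 (CG42748, rush, Arf1, MFS10, CG15784 and Den1) had signals from 152 to 185. Some members may be shoulders of a neighbour: 167 pairs of neighbouring summits shared a start, 143 of them under 250 bp apart. Separately, 63.4% of members had the same width of 470 bp.

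The 20 highest members had signals from 1528 down to 1430. Msr-110 led with a signal of 1528, a summit 182 bp upstream and replicate signals of 869, 334 and 307. Among single-direction promoter peaks it was the highest below the signal limit. The nearest of them above that limit was at GstE13, with 1536, and was left out. CG8036 followed with 1511.

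Several of the 20 encode proteins of metabolism. Glyp, which encodes glycogen phosphorylase, had 719, 411 and 356 in the 3 replicates, with the summit 213 bp upstream between genes. Etf-QO, which passes electrons from fatty acid oxidation to ubiquinone, had 836, 289 and 340. Its summit was downstream, at 170 bp in the 5′ untranslated region. The mitochondrial carriers SCaMC and sea (a citrate carrier) and the acyl-CoA synthetase gene pdgy were also in this group.

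Others encode proteins of signalling pathways or cell death. The summit of ft, an atypical cadherin upstream of Hippo signalling, lay 452 bp upstream with 790, 358 and 331. E(spl)m3-HLH and E(spl)m7-HLH, repressors that Notch switches on, had pooled signals of 1489 and 1434 and summits 461 and 375 bp upstream. The cell death gene hid had 720, 377 and 366, with the summit 314 bp upstream.

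Also among the 20 were cbt and lola, both transcription factor genes, bin3, an RNA methyltransferase gene, and nrv1, a subunit of the sodium pump. Rab5, the GTPase of early endosomes, and the ribosomal protein gene RpL30 had pooled signals of 1436 and 1452. The remaining names were hng3, CG10565 and Bacc. In 19 of the 20 peaks all 3 replicates had a match within 100 bp, and Bacc had none in replicate 2. The core CACTG was in 5 of the 20 windows and GAGAG in 5.

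At the other end, red, Got2 and Den1 had the lowest signals, 152.5 for red and 152.4 for Den1. Got2, a mitochondrial aminotransferase, had 102, 32.5 and 17.8 in the 3 replicates and ranked 6924, 9642 and 22847. Rgl and Pino were just inside the window, with summits 500 and 499 bp upstream, and scrib was just outside at 501 bp. RpS7 had a head-to-head partner at 1000 bp and was left out, while CG1910 had its partner at 1001 bp and was kept.

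The 1755 peaks lay at 1588 starts of 1378 genes. Of these starts, 1425 had 1 peak, 159 had 2 and 4 had 3. CG10365 was among the latter, with signals of 539, 337 and 202 at 343 bp upstream, 440 bp downstream and 134 bp upstream, and so was miple2, with 246, 237 and 223 at 95 bp upstream, 381 bp upstream and 218 bp downstream. The highest 2 of the CG10365 peaks had a match among the 8091 strongest regions of every replicate. By arm, 2L held 303 members, 2R 352, 3L 338, 3R 384, X 370 and chromosome 4 held 8.

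GAGAG repeats were more frequent at these peaks than at divergent promoters in every replicate. GAGAG or its reverse complement lay within 100 bp of 37.4% of summits (35.1 to 39.7%), against 23.2% at divergent promoters, 25.3% at peaks away from starts and 29.3% in windows of the same length, centred 118 bp upstream, at all 13422 single-direction starts. At the 10236 single-direction starts of genes with no promoter peak it was 25.7%. In the replicate lists the share was 37.0% ± 1.46 at single-direction and 21.4% ± 0.430 at divergent promoters. The difference was 15.6 points ± 1.37 (SD, n = 3) and lay between 14.0 and 16.7 in all 3 replicates. An exact two-sided sign-flip permutation test over the replicates gave p = 0.25, the smallest value that 3 replicates allow (0.333 after Benjamini-Hochberg adjustment over the 4 measures computed). Against peaks away from starts the difference was 11.1 points ± 0.940.

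Repeated copies were more unequal still. At least 3 copies, overlapping ones counted, were in 11.6% of members, in 4.32% of divergent promoter peaks and in 5.64% of the promoters of genes with no peak. The share was 6.61% in the strongest quartile, 12.1% and 16.2% in the next and 11.4% in the weakest, so the highest peaks held the fewest repeats. Among the 120 left-out single-direction peaks it was 4.17% (1.79 to 9.38%). Copies were not centred on the summit: there were 3.86 per kb within 30 bp of it and 5.54 per kb at 60 to 140 bp. Seen from the start, the density at member starts was highest in the last 100 bp before it, at 7.92 per kb. For starts of genes with no promoter peak it was 2.57 per kb there and 2.70 per kb from 200 to 100 bp upstream.

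The DRE went the other way. It was in 1.48% of members (1.01 to 2.16%), 6.86% of divergent promoter peaks and 3.32% of all single-direction promoters. In the replicate lists the members had 1.25% ± 0.292 and divergent peaks 7.68% ± 0.875, a difference of -6.43 points ± 0.968 (SD, n = 3). Among the 120 left-out peaks of highest signal it was 8.33% (4.59 to 14.7%). The signal limit of the selection separates these peaks from the members, and the difference was not tested. The shorter CGATA, the core bound by BEAF-32, lies within the DRE. It was in 24.4% of members, 36.8% of divergent promoter peaks and 29.9% of all single-direction promoters. Shares over all divergent promoters, with or without a peak, were not computed. Whether these differences, and that for GAGAG, belong to the peaks or to the 2 promoter classes was not tested.

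TATAAA, the letters of the TATA box, was also less frequent in these windows. It was in 26.2% of members (24.2 to 28.3%), 34.0% of divergent promoter peaks (30.5 to 37.6%) and 32.3% of all single-direction promoters. Peak windows follow the summit and those of all promoters were centred 118 bp upstream, so they cover different distances from the start. The part of window placement was not tested. Motif 1 (GGTCACACT) was in 1.25% of members (0.829 to 1.89%), 2.98% of divergent promoter peaks (1.94 to 4.56%) and 1.09% of all single-direction promoters. The nuclear receptor hexamer AGGTCA was in 2.79%, 4.77% and 3.90% of the same 3 sets, and the initiator letters TCAGT in 35.3%, 30.8% and 31.6%. The E-box CAGCTG was in 10.9%, 10.4% and 10.6% and CACGTG in 2.34%, 2.38% and 2.21%. The Grainyhead palindrome AACCGGTT was in 0.513%, 0.298% and 0.544%, and the Zelda site CAGGTAG in 1.08%, 0.745% and 1.42%. The replicate lists were not searched for these motifs. All motifs were sought on both strands in windows of 201 bp, and a match is only these letters.

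**Figure D3:**
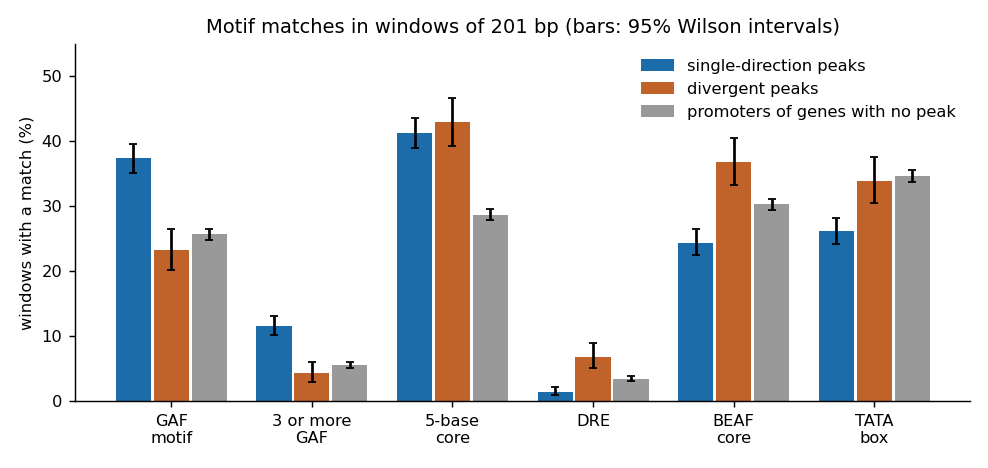
Share of 201 bp windows, in percent, that hold each motif on either strand, for single-direction promoter peaks, divergent promoter peaks and promoters of single-direction genes with no promoter peak. Bar heights are shares with 95% Wilson intervals, GAF is GAGA factor (GAGAG) and the 5-base core is CACTG. The GAF motif is more frequent at single-direction peaks (37.4%) than in the other sets, and the DRE is at 1.48% there and 6.86% at divergent peaks.

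The CACTG core was common at these peaks and had a like share in the other peak sets. It was in 41.3% of members (39.0 to 43.6%), 42.9% of divergent promoter peaks and 44.1% of peaks away from starts, against 30.5% of all single-direction promoters. In the replicate lists single-direction peaks had 41.3% ± 0.412 and divergent peaks 42.6% ± 0.586, a difference of -1.37 points ± 0.365 (exact sign-flip permutation p = 0.25, the smallest possible with n = 3, adjusted 0.333). The core partly overlaps the initiator (TCAGTG, in 11.6% of members) and the end of Motif 1. It was no more frequent in strong peaks, with 41.0%, 41.7%, 44.9% and 37.4% from the strongest quartile to the weakest.

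The inward-facing pair was in 3.59% of members (2.82 to 4.57%) and in 1.54% of all single-direction promoters, and the outward-facing pair in 3.19% and 1.56%. Single copies at 60 to 140 bp from the summit faced inward 461 times and outward 420 times, a ratio of 1.10, against 1.05 at divergent promoters and 1.48 (1835 to 1238) away from starts. The density of the core was 2.42 per kb within 30 bp of the summit and 3.10 per kb at 60 to 140 bp. The longer string CACAGTGG, chosen after its values were seen, was in 3.42% of members, 1.79% of divergent promoter peaks and 1.16% of all single-direction promoters. In the replicate lists it was in 3.66% ± 0.376 of single-direction and 1.61% ± 0.223 of divergent promoter peaks.

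Median signals lay close together in both classes of promoter. In replicate 1 the median signal of matched members was 158 and that of divergent promoter peaks 162, in replicate 2 it was 68.4 and 71.6, and in replicate 3 it was 70.7 and 69.5. The ratio was 0.982 ± 0.0325 (SD, n = 3), on either side of 1 among the replicates. The selection used the signal, so this ratio is given as a description. The median offset was -122 bp at single-direction and -33.2 bp at divergent promoters, a difference of -88.8 bp ± 4.07 (SD, n = 3). Summit position was also used in the selection, so this difference too is a description. The sign-flip test was computed for the offset difference and the log2 signal ratio, and both entered the adjustment over the measures. Because of the selection, no conclusion is drawn from either. Part of that gap is built in, since at a head-to-head promoter a summit beyond the midpoint is counted to the other gene.

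Of the 9654 protein-coding genes with a single-direction start, 1378 had a member peak, or 14.3% (13.6 to 15.0%). The replicate lists gave 14.1% ± 1.27 (SD, n = 3). When only members matched in both other replicates were kept, which shortens the list by construction, 1058 peaks and 9.44% of genes remained without replicate 1, 10.1% of genes without replicate 2 and 10.4% without replicate 3. Genes with a peak were long: their median length was 7395 bp, against 1955 bp for the 8090 single-direction genes with no promoter peak. They had 2.28 starts on average against 1.33. Every additional start widens the stretch that can hold a summit. The share of genes with a peak was 8.07% with 1 start (548 of 6791), 20.9% with 2 and 43.2% with 3 or more.

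Among the 6791 genes with 1 start, where that difference is absent, length and GAGAG repeats both went with a peak. From the shortest to the longest quartile of these genes by length, the share with a peak was 2.29%, 4.78%, 8.37% and 16.8%. It was 6.37% of genes with no GAGAG in the 200 bp before the start, 10.6% with 1 or 2 copies and 24.6% (83 of 337, 20.3 to 29.5%) with 3 or more, and the replicates gave 25.1% ± 0.747 for the last. The repeats went with a peak in short genes too. In the shorter part of the genes, split at the median length, 2.94% of those without a copy and 12 of 46 with 3 or more (26.1%, 15.6 to 40.3%) had a peak. The median lengths of these genes were 957 and 1177 bp. In the longest quartile it was 14.8% and 24.8%, but length was not equal there, with medians of 6444 and 12657 bp. These cuts of genes were chosen after values had been seen, and no test was made of them. The gap to the next protein-coding gene upstream went with smaller differences: a peak was at 6.64% of 1-start genes under 1 kb from the next gene, 10.1% at 1 to 5 kb and 9.76% beyond.

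**Figure D4:**
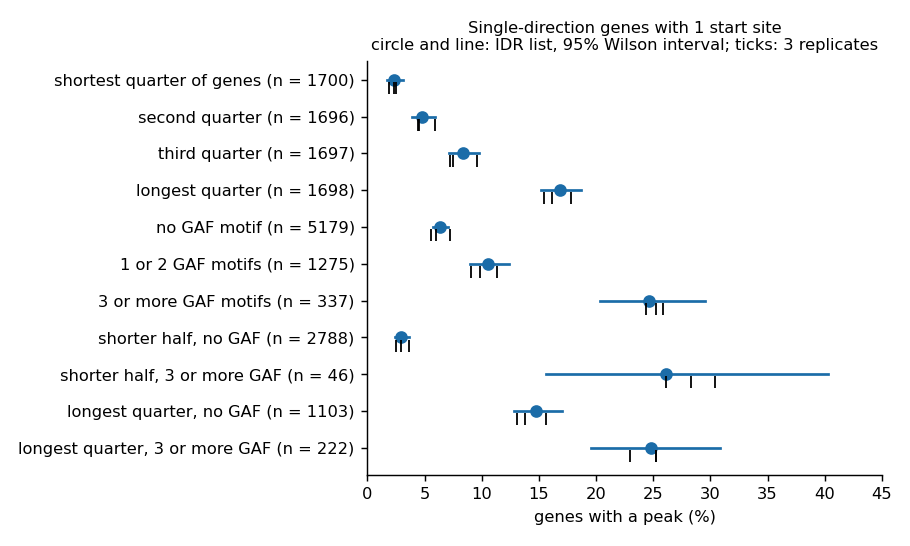
Share in percent of single-direction genes with 1 start site that had a peak, by gene length and by number of GAF motifs (GAGAG) in the 200 bp before the start. Circles and lines are the IDR list with 95% Wilson intervals, and ticks are the 3 replicates' own lists. Genes with 3 or more motifs had a peak in 24.6% of cases, and those with none in 6.37%.

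Counts for 24 gene lists are read against the 14.3% of all single-direction genes and against the number that the genes' own number of starts would give. Since pathway genes have many starts, that second number is the closer comparison. Gene length and GAGAG repeats, which also went with a peak, do not enter the number given by starts. Their part in the counts of the lists was not tested. A list is not a set of independent genes, and no test of a list was made.

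Signalling pathways of development held many of these promoters. Of 14 Notch pathway genes with a single-direction start, 8 had a peak, and 7 to 9 did in the replicate lists, against 2.35 given by their starts. They were E(spl)m7-HLH, numb, gro (the corepressor that E(spl) proteins recruit), neur and mib1 (ubiquitin ligases for Notch ligands), E(spl)mbeta-HLH, mam (a coactivator) and the ligand gene Ser. E(spl)m7-HLH had 819, 321 and 289 in the 3 replicates. Their median signal was 629. Over all 1755 peaks it was 282, and the difference was not tested, since signal was used in the selection.

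For the BMP and activin pathway the count was 7 of 16 against 2.86, including the receptors babo and tkv, the ligands daw and mav and the transducers Smox and Mad. It was led by shn, a zinc finger partner of Mad, with 652, 223 and 231. The ligand gene mav, with 177 in replicate 1, had no match in replicates 2 and 3. Of 17 genes of the EGF receptor and Ras pathway, 7 had a peak against 3.77. The ligand gene spi had 585, 328 and 292 and the phosphatase gene csw 664, 277 and 212.

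Hippo and planar polarity genes had a peak in 6 of 12 cases against 2.06, with ft, Mer, ex, sd, pk and dco. Mer, an upstream activator of Hippo signalling, had 415, 172 and 120 with the summit 106 bp downstream. Of 19 Wnt pathway genes 7 had a peak against 3.55, at a low median signal of 200.0. The receptor gene fz3 had 242, 88.1 and 121 and nkd, a feedback inhibitor, 144, 84.7 and 71.2.

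JAK-STAT and JNK genes had 4 of 14 against 3.18, led by kay, the fly Fos, with a pooled signal of 262, and Stat92E with 256. The Hedgehog list had 2 of 7 against 1.17, ttv and the receptor gene ptc. The ptc peak was matched in replicate 1 only, and its window held 7 copies of GAGAG. For the Hedgehog list the replicate lists gave 3, 1 and 0 genes.

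Hormone and growth genes were also frequent. Of 23 genes of the ecdysone response, the steroid program of metamorphosis, 13 had a peak, and 11 to 13 did in the replicate lists, against 6.49. These included the receptor gene EcR, the early genes br, Eip74EF and Eip75B, and the competence factor ftz-f1. E23, an ABC transporter gene, had 766, 349 and 316 with the summit 267 bp upstream. Eip75B, a nuclear receptor gene, had 701, 279 and 284 with the summit 41 bp downstream of the start.

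Insulin and TOR genes had 10 of 20 against 4.49, with InR, foxo, Thor and Pdk1 among them. REPTOR, a transcription factor under TOR, had 469, 216 and 237, and Pi3K21B, the adaptor of the PI3 kinase, had 294, 105 and 162. Clock genes had 6 of 13 against 3.64. The light sensor gene cry had 419, 266 and 223, and vri, a repressor shared with the ecdysone list, had 292, 159 and 159.

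Ribosomal protein genes were counted in 20 of 39 cases against 7.76, with 23, 17 and 17 in the replicate lists. RpL30 had 771, 342 and 331 with its summit 34 bp upstream, and RpS4 had 320, 131 and 153 with the summit 16 bp downstream of the start. Other families used in every cell gave other counts. ATPsynC was the single member among 46 oxidative phosphorylation genes (6.53 given by starts), with a signal of 167 and a match in replicate 1 only. None of 26 proteasome genes had a peak against 3.13, and 2, 0 and 0 did in the replicate lists.

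Counts for stress and trafficking genes were also above those given by starts, as they were for the signalling lists. Heat shock and chaperone genes had 6 of 21 against 3.61. Hsp26, a small heat shock protein gene, had 561, 133 and 183, its summit 340 bp upstream with 3 copies of GAGAG, and Hsp22 had 261, 116 and 109. Autophagy genes had 3 of 9 against 1.78, with Atg13 at 618, 210 and 234 and Atg8a at 546, 197 and 198. Of 20 membrane traffic genes 8 had a peak against 3.88, led by Rab5 with 721, 352 and 371. Sar1, the GTPase of COPII vesicles, had 206, 43.1 and 84.3.

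Among regulators of chromatin, 7 of 20 remodelling and Polycomb or trithorax genes had a peak against 5.07. The zinc finger gene jing had 569, 238 and 214 and MEP-1 403, 176 and 145. Of 12 insulator and architectural protein genes 2 had one, against 2.06. They were Trl, which encodes GAGA factor itself, with 277, 137 and 136, and BEAF-32, with a pooled signal of 365 and no match in replicate 2. Neither window held GAGAG, and both held the core.

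Actin and adhesion genes had 8 of 27 against 6.09, with Vinc (vinculin) at 675, 215 and 214 and Act5C, a cytoplasmic actin gene, at 416, 163 and 135. Muscle structure genes had 4 of 19 (21.1%) against 5.43, with 5, 5 and 3 in the replicate lists, led by Msp300 at 263, 144 and 94.2 and Act87E at 156, 51.9 and 71.3. Neuronal genes had 3 of 29 against 7.46, with futsch at 137, 75.9 and 60.8 and sli, whose product guides axons, at 105, 33.5 and 32.3.

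Patterning factors had 9 of 46 against 9.73, led by the gap gene hb with 386, 181 and 210 and the eye gene so (sine oculis) with 293, 134 and 82.9. Cuticle protein genes had 2 of 86 against 7.97, Cpr72Ea with 135, 57.2 and 98.0 and Cpr51A with 127, 29.3 and 44.8. None of 154 chemoreceptor genes had a peak against 15.1, and none did in any replicate list.

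**Figure D5:**
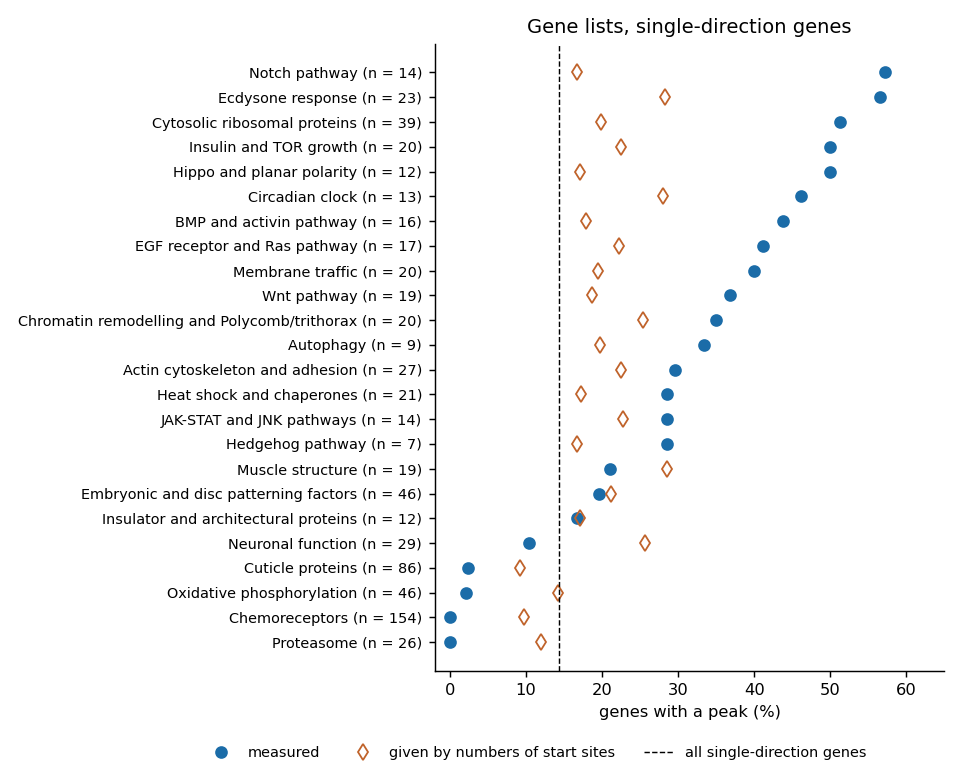
Share in percent of the single-direction genes of each list that had a peak (filled circles), the share given by the numbers of start sites (open diamonds) and the 14.3% of all single-direction genes (dashed line). Notch pathway genes are highest, at 8 of 14, and chemoreceptor and proteasome genes had 0.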

How the data were processed

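The deposited region lists give positions on dm6 and, per the file headers, were called for each replicate and for the pooled replicates against 1 control, with the IDR list derived from them. Neither aligner nor peak caller is named in the sources used here. The signal (the authors' peak height over the control, by column order) is not scaled between lists, and the other column used is the authors' deposited summit position in bp. The coverage tracks, the dm3 lists and the control were not used here. Members and gene lists were chosen with earlier results of these data known.

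Starts came from Ensembl release 115 and sequence from the Release 6 genome. Replicate lists were cut to 8091 regions, their 300 highest left out, and classified alike. Replicates were compared by exact sign-flip permutation tests (two-sided, n = 3). Their p-value is 0.25 whenever all 3 differences share a sign, whatever the spread, and it concerns only these samples. Nothing in the sources says that they came from separate crosses. Summits were matched within 100 bp and motifs sought within 100 bp. The number given by starts sums the share of genes with 1, 2 and 3 or more starts over a list. Of the gene symbols written, 27 were not matched, among them Dl, Hairless, Tor and fmi. These symbols were left out of the lists and of their counts.

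Named genes are those of the 20 highest and 3 lowest members, the 2 highest of each list, the 2 starts named with 3 peaks and those nearest the thresholds. Other genes of a list are named without values. Named genes of a list of 5 or fewer, Sqor, Tsp42El and the genes of unmatched peaks were chosen after their values were seen. The classification was tested on simulated data, where 100% of 1000 planted summits were recovered and 0 of 1000 distant ones were called. Intervals cover counting error only. Alternatives were other windows, distances, left-out peaks, list lengths and replicates. Scripts ran under scipy 1.17.1, pandas 2.3.3, numpy 2.4.6, matplotlib 3.10.9 and Python 3.11.15.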

Additional observations from a re-analysis of the deposited data

How the results depend on the processing

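Read depth is unknown, which limits what the weakest peaks can show, and a replicate left out below had still entered the making of the IDR list. With 1 group there was no comparison of groups to block by replicate, and promoter classes were compared within each replicate. Of 80 alternatives 45 left a value within 1 SD of the replicates or, for a count, within 1.5 times. Other than leaving out a replicate there were 41 alternatives, of which 19 did so. The replicate differences between promoter classes were computed after the data were seen. They all kept their sign without any 1 replicate. Where all replicates share a sign, this could not have been otherwise. Leaving 1 replicate out of these means, or of the mean signal ratio, cannot move them by 1 SD. Their staying within 1 SD is therefore no check, although these cases are among the 45. The values that moved further are given here, and for leaving out a replicate the full range, which also holds values that stayed within these bounds. The cause was not tested beyond fewer or more bases and peaks entering.

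The number of members was 1140 with a start window of 250 bp, 865 in the upper part of the IDR list and 1058 to 1176 when matched in both other replicates. The upstream share was 66.4% at 250 bp, 65.1% at 1000 bp, 77.0% in the stronger members and 69.3 to 70.7% without 1 replicate, and the median offset was -60.5 bp at 250 bp and -172 bp in the stronger members. The share matched in all replicates was 38.4% at 50 bp, 69.3% at 250 bp, 31.5% in lists of 4000, 73.2% in lists of 16000 and 60.3 to 67.0% without 1 replicate. The core share was 20.9% within 50 bp, 55.7% within 150 bp and 41.7 to 43.4% without 1 replicate. The inward-facing pair had 0.513% and 7.69% in these windows, 4.33% in the stronger members and 3.66 to 4.12% without 1 replicate. GAGAG had 20.8% and 50.8% in these windows and 35.2% in the stronger members, while divergent promoter peaks had 11.9% and 31.0% in the same windows. The share of genes was 10.5% at 250 bp, 17.1% at 1000 bp, 7.80% for the stronger members and 9.44 to 10.4% without 1 replicate. Among members matched in both other replicates, the upstream share was 79.6 to 80.4% in the strongest and 63.9 to 65.9% in the weakest quartile.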
